A study of Mus musculus with 24 samples.

Results

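The 10 genes described here encode the parts of the mouse synaptonemal complex and the cohesin subunits used in meiosis, and they were read from a table of RNA-seq counts of purified male germ cells. They were chosen by name, as the entries of the count table whose Ensembl identifier carries the symbol Sycp1, Sycp2, Sycp3, Syce1, Syce2, Syce3, Tex12, Smc1b, Rad21l or Stag3 in GENCODE M21, and all 10 were found among 55536 genes. RNA was sequenced from pachytene/diplotene spermatocytes and from round spermatids of adult male mice aged 10 to 15 weeks on a C57BL/6J background, each library from the testes of 2 to 5 pooled mice, in fractions stated to be more than 70% pure. Wild-type, Ago413+/- and Ago413-/- mice were compared, the last being homozygous and the second heterozygous for a germline deletion over the linked Ago4, Ago1 and Ago3 genes. That deletion removes all of Ago1 and part of Ago3 and of Ago4, was made in 129 embryonic stem cells and passed through a Cre deleter, and is present in every cell of the animal rather than in germ cells alone.

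The synaptonemal complex is a protein zipper that holds homologous chromosomes together during the first meiotic prophase. SYCP2 and SYCP3 form the axial elements, which become the lateral elements once homologs synapse, SYCP1 makes the transverse filaments that bridge them, and SYCE1, SYCE2, SYCE3 and TEX12 build the central element in the middle. Beneath the axes lies cohesin, a ring that keeps sister chromatids together and anchors chromatin loops, and in meiosis its SMC1B, RAD21L and STAG3 subunits take the places of the mitotic SMC1A, RAD21 and STAG1 or STAG2. The complex is complete at pachynema and comes apart at diplonema, so transcripts of these genes are usually associated with prophase spermatocytes rather than with haploid spermatids.

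Of 24 libraries 3 are marked as outliers in the labels and entered no comparison, and the remaining 21 comprised 4 wild-type, 3 Ago413+/- and 3 Ago413-/- spermatocyte libraries and 3, 4 and 4 round spermatid libraries of the same genotypes. Total counts ranged from 12825105 to 29749058 per library. Ago1 had 0 counts in all 7 Ago413-/- libraries and averaged 3.33 ± 0.626 CPM, counts scaled to library size (SD, n = 4) in wild-type spermatocytes. Pachytene and diplotene markers, a list of 10 genes, summed to 4094 to 4381 CPM in wild-type spermatocytes and to 3872 to 4413 CPM in wild-type round spermatids, so the summed level of that list did not separate the fractions. Elongating spermatid markers did separate them, at 4552 to 10139 CPM in the spermatocytes and 26778 to 37041 CPM in the round spermatids. The library labelled wild-type round spermatids replicate 3, one of the marked outliers, had only 2 of the 10 genes within the range of the other wild-type round spermatids and 5 within that of the wild-type spermatocytes. The labelled outliers of wild-type spermatocytes, replicate 3, and of Ago413+/- spermatocytes, replicate 4, each had 4 of the 10 genes within the range of their own group, and 5 and 4 within the round spermatid range of their genotype. The first of these and the round spermatid outlier, both wild-type, carry consecutive library numbers, 72 and 71, and each had more of the 10 genes within the range of the other fraction than within its own. Whether they were exchanged was not tested.

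The genes are spread over 8 autosomes, given here as 1-based GRCm38 coordinates from GENCODE M21. Sycp2 (ENSMUSG00000060445) spans chromosome 2 from 178345293 to 178407685 on the minus strand and Rad21l (ENSMUSG00000074704) the same chromosome from 151645404 to 151668533, also on the minus strand. Sycp3 (ENSMUSG00000020059) lies on chromosome 10 from 88459569 to 88473236 on the plus strand and Sycp1 (ENSMUSG00000027855) on chromosome 3 from 102818499 to 102936100 on the minus strand. Of the central element genes, Syce1 (ENSMUSG00000025480) lies on chromosome 7 from 140777229 to 140787852 (minus), Syce2 (ENSMUSG00000003824) on chromosome 8 from 84872111 to 84888221 (plus), Syce3 (ENSMUSG00000078938) on chromosome 15 from 89390174 to 89410503 (minus) and Tex12 (ENSMUSG00000032065) on chromosome 9 from 50556819 to 50561325 (minus). Smc1b (ENSMUSG00000022432) spans chromosome 15 from 85064689 to 85131964 on the minus strand and Stag3 (ENSMUSG00000036928) chromosome 5 from 138280240 to 138312393 on the plus strand. Counts covered whole genes, so the values below are of exons and make no statement on single transcripts.

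Sequences before an annotated transcript start of 4 of these genes are shown because they stand for the patterns seen between the fractions, Sycp3 and Tex12 being lower in round spermatids, Syce2 higher and Stag3 at much the same level in both. Each is the 250 bases before a RefSeq transcript start on GRCm38.p6, written 5′ to 3′ on the strand of the gene. Capitals mark the E-box CACGTG, the E2F-type letters TCCCGC and the MYB-type letters CAACGG, each searched on both strands, so that GCGGGA and CCGTTG mark the last 2 read on the other strand. Sycp3 is given for chr10:88459337-88459586 (plus), Tex12 for chr9:50561269-50561518 (minus), Syce2 for chr8:84872008-84872257 (plus), which is 1 of its 2 RefSeq starts, and Stag3 for chr5:138280259-138280508 (plus). RefSeq starts and GENCODE gene ends differ, so the Stag3 window lies wholly inside the gene span given above, and those of Sycp3, Syce2 and Tex12 reach into theirs.
Sycp3: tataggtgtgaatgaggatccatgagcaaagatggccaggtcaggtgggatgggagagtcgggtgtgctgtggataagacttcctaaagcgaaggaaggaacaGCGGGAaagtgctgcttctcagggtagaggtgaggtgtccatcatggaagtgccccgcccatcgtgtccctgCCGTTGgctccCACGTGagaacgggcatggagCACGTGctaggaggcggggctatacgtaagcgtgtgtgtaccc
Tex12: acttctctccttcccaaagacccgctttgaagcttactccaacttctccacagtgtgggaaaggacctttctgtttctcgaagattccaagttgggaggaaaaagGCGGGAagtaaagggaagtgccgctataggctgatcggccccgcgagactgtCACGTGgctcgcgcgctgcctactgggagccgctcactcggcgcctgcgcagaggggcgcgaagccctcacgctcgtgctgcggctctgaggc
Syce2: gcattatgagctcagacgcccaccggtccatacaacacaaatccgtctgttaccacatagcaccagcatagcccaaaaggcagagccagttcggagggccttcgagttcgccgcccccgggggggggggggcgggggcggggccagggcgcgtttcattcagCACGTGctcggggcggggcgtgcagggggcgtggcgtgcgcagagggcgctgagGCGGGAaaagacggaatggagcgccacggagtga
Stag3: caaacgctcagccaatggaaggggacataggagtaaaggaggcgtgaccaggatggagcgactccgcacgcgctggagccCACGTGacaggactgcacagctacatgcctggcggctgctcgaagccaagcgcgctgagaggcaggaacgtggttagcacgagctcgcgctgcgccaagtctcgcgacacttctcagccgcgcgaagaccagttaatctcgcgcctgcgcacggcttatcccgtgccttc

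The E-box letters stood in the windows of 5 of the 10 genes, Sycp3, Sycp1, Syce2, Tex12 and Stag3, against 6.02% of the 32851 RefSeq windows of the same length. In Sycp3 there were 2 of them, starting 64 and 43 bases before the start. The E2F-type letters were found for 4 of the 10 genes, Sycp3, Syce2, Tex12 and Smc1b, against 16.9% of all windows, and the MYB-type letters for 2, Sycp3 and Smc1b, against 4.05%. The cyclic AMP response element TGACGTCA was in none of the members' windows and in 1.55% of all windows. Since Syce2 and Syce3 have 2 starts each, the 10 genes had 12 windows. Genes with the E-box letters were found among those lower in round spermatids, higher there and at much the same level, and such letters are a description of sequence, not evidence of binding.

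Compared per length, as CPM per kilobase of merged exons (RPKM), Syce1 stood highest in wild-type spermatocytes at 327 ± 15.0 (SD, n = 4), above every library of the next gene. Sycp3 at 105 ± 39.8, Stag3 at 95.4 ± 11.0 and Syce3 at 79.8 ± 3.85 followed, and neighbours among these 3 overlapped between libraries. Below them Smc1b at 49.0 ± 14.4, Syce2, Sycp1 and Sycp2 at 23.8 again overlapped neighbour by neighbour. Tex12 at 8.18 ± 5.13 and Rad21l at 0.309 ± 0.190 each stood apart from the gene above. Rad21l, the cohesin kleisin of early prophase, had 5 to 39 counts per library, which is few, so that its ratios are imprecise. Genes of the same structure therefore stood at very different levels, the central element holding both the highest gene and the second lowest.

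In wild-type round spermatids Syce1 was again highest, at 266 ± 7.78 RPKM (SD, n = 3) and apart from the next. Syce2 came next at 116, followed by Syce3 at 92.3 and Stag3 at 86.9, neighbours among these 3 overlapping between libraries. Sycp3 had moved down to 33.4 ± 1.75, followed by Smc1b at 18.6, Sycp1 at 12.2 and Sycp2 at 4.21. Each of Sycp3, Smc1b and Sycp1 stood apart from the next gene, while Sycp2 overlapped Tex12 at 2.85. Rad21l closed the order at 0.367. Summed over the 10 genes, CPM were 1731 ± 209 in wild-type spermatocytes and 1356 ± 41.04 in wild-type round spermatids.

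The mutants kept the ends of this order. Syce1 was the highest and Rad21l the lowest of the 10 genes per length in all 6 groups, with Tex12 second lowest, and Syce1 was apart from the next gene in each group. In Ago413-/- spermatocytes Sycp3 stood below Smc1b in the order, at 51.3 ± 9.51 RPKM (SD, n = 3), overlapping Syce2 below it, and in Ago413+/- spermatocytes it overlapped Smc1b and Syce2 at 53.1 ± 10.5 RPKM (n = 3). Stag3 stayed between 373 and 557 CPM in the 6 mutant spermatocyte libraries and between 434.6 and 524 CPM in the 8 mutant round spermatid libraries. Syce3 reached 77.4 and 64.3 CPM in replicates 1 and 2 of the Ago413-/- round spermatids, against 44.3 and 47.7 CPM in the other 2 and 46.3 to 53.4 CPM in Ago413+/-. The sum over the 10 genes was 1503 ± 126 CPM in Ago413+/- and 1643 ± 181 CPM in Ago413-/- spermatocytes, and 1423 ± 10.2 CPM and 1398 ± 74.7 CPM in the round spermatids.

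**Figure D1:**
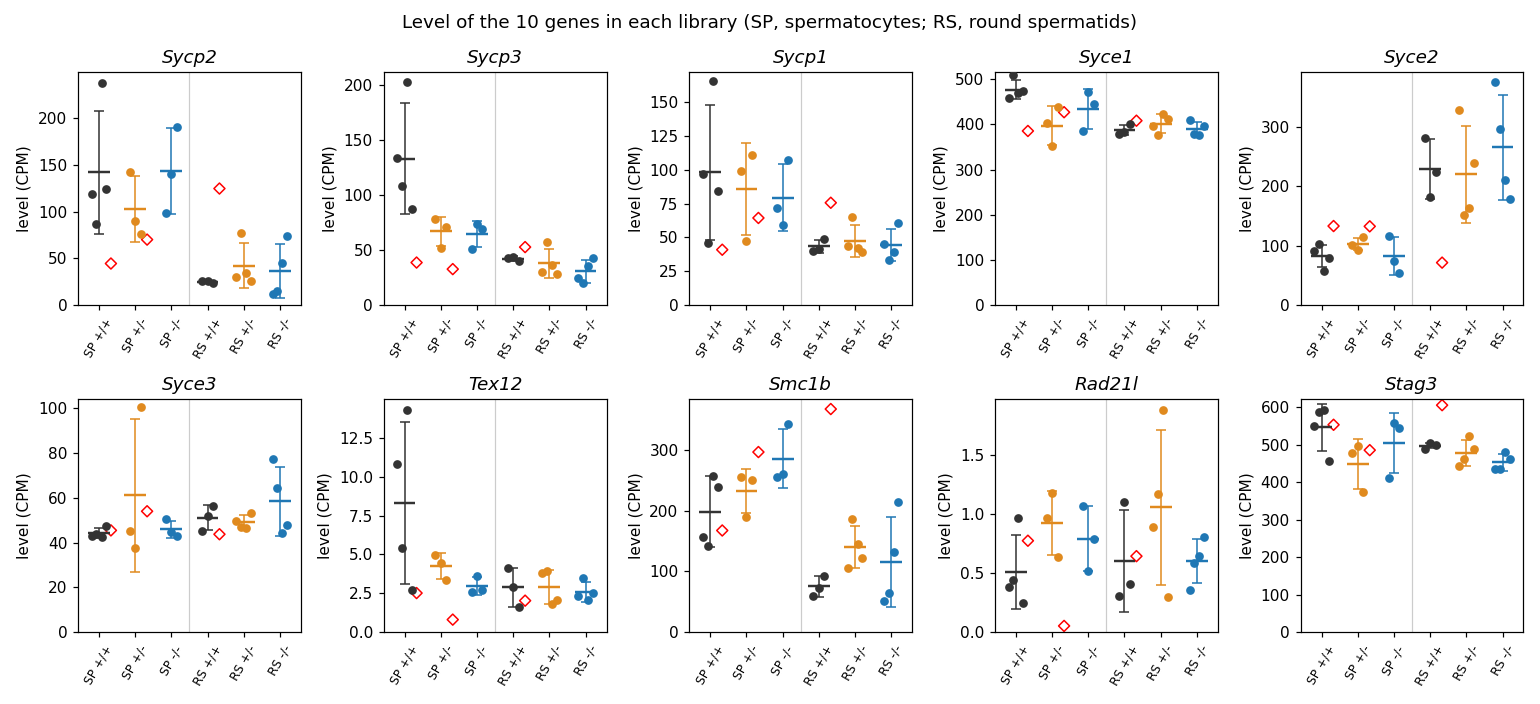
Level of each of the 10 genes in every library, as CPM on a linear axis, for spermatocytes (SP) and round spermatids (RS) of the 3 genotypes. Points are libraries, the horizontal line is the group mean and the bar its SD, and open red diamonds are the 3 libraries the labels call outliers. Sycp2, Sycp3 and Smc1b sit lower in the wild-type round spermatids than in the wild-type spermatocytes and Syce2 sits higher, while Stag3 and Syce1 lie close together in all groups.

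The first comparison asked how transcripts of these genes differed between the meiotic and the post-meiotic fraction of the same genotype. In the wild type 5 of the 10 genes were lower in round spermatids, 1 was higher and 4 were not called, where a call needed an adjusted p under 0.05 in edgeR's quasi-likelihood test and an absolute log2 fold change above 0.5. Of all 20404 genes tested, 24.2% were called, 11.4% lower and 12.7% higher. The genes that fell were the axial Sycp2 and Sycp3, the transverse filament gene Sycp1, the central element gene Tex12 and the cohesin gene Smc1b, and the one that rose was the central element gene Syce2. The median log2 difference of the 10 genes was -0.74, beside 0.02 over all genes. This median was -1.16 in a fit to the 2 wild-type groups alone and -0.31 with the outlier libraries. In these bulk fractions fewer cells of a type and less RNA per cell cannot be told apart. All 6 calls were lost when the 3 outlier libraries were added back, and the values then are given with each gene.

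Sycp2, which encodes the larger of the axial proteins, had 119, 86.5, 238 and 124 CPM in the wild-type spermatocyte libraries and 25.8, 25.6 and 24.1 CPM in the round spermatids. Every round spermatid library lay well below every spermatocyte library. The log2 difference was -2.50 (SE 0.51, edgeR adjusted p = 0.00152), the widest of the 10 in the wild type. With the outlier libraries it was -1.31 with an adjusted p of 0.117, the round spermatid outlier alone having 125 CPM of Sycp2.

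Sycp3, the axis protein by which spermatocyte spreads are usually staged, had 134, 109, 203 and 87.2 CPM in the wild-type spermatocytes. In the round spermatids it had 43.2, 43.9 and 39.8 CPM, close together and all below the lowest spermatocyte library. It fell by 1.66 log2 units (SE 0.29, edgeR adjusted p = 0.000594), and by 1.36 with an adjusted p of 0.063 with the outlier libraries. SYCP3 protein was also among the markers by which the purity of the fractions was judged, so its transcript is not independent of how the fractions were described. Its exons overlap those of Chpt1 on the opposite strand over 660 bases, 52.2% of its exon length, and reads there belong to Sycp3 only if the counting used strand. The libraries were directional, but which strand column was deposited is not given in the sources used here, so part of the Sycp3 count is uncertain.

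Sycp1, the transverse filament gene, had 97.1, 45.8, 166 and 84.01 CPM in the spermatocytes and 40.2, 41.1 and 49.0 CPM in the round spermatids. The groups overlapped, since spermatocyte replicate 2 lay between the round spermatid values. Its log2 difference of -1.18 (SE 0.34, edgeR adjusted p = 0.0131) passed the test. The call was lost without spermatocyte replicate 4, without round spermatid replicate 1 and without round spermatid replicate 2, and with the outlier libraries the difference was -0.76 with an adjusted p of 0.131. Of the 31-base words of the Sycp1 exons, 15.6% occur elsewhere, most of them in the pseudogene Sycp1-ps1. How far this affects its counts was not tested.

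Within the central element the 4 genes did not move together. Syce2, which with TEX12 forms the fibres of the central element, had 91.0, 102, 57.6 and 79.9 CPM in the spermatocytes and 281, 181 and 224 CPM in the round spermatids. All 3 round spermatid libraries were above all spermatocyte libraries. The rise was 1.47 log2 units (SE 0.28, edgeR adjusted p = 0.00106) and 1.03 with an adjusted p of 0.0633 with the outlier libraries. Tex12, the partner of Syce2, had 10.8, 5.43, 14.3 and 2.73 CPM in the spermatocytes and 4.13, 2.91 and 1.65 CPM in the round spermatids. These groups overlapped, spermatocyte replicate 5 lying among the round spermatids. Tex12 fell by 1.499 (SE 0.43, edgeR adjusted p = 0.0127), and the call was lost without spermatocyte replicate 4, without round spermatid replicate 4 and in a fit to the wild-type groups alone, while with the outlier libraries the difference was -1.40 with an adjusted p of 0.0683. Syce1, a central element protein that binds SYCP1, had a log2 difference of -0.30 (edgeR adjusted p = 0.048), under the 0.5 a call needed, although its round spermatid libraries at 379 to 401 CPM all lay below its spermatocyte libraries at 457 to 508 CPM. Syce3, a small protein of the same element, showed 42.6 to 47.2 CPM in the spermatocytes and 45.1 to 56.3 CPM in the round spermatids, a difference of 0.21 with a 95% interval from -0.28 to 0.70.

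Of the 3 cohesin genes only Smc1b was called in the wild type. Smc1b, the meiotic form of the SMC1 ring subunit, had 156, 141, 257 and 239 CPM in the spermatocytes and 59.6, 73.3 and 93.1 CPM in the round spermatids. The groups did not overlap, and the log2 difference was -1.40 (SE 0.35, edgeR adjusted p = 0.00582). With the outlier libraries it shrank to -0.39 with an adjusted p of 0.557, the outlier labelled round spermatids having 367 CPM of Smc1b, above all 4 spermatocyte libraries used. Stag3, the meiotic form of the subunit that binds the kleisin, had 549.7, 588, 594 and 457 CPM in the spermatocytes and 490.0, 505 and 499.8 CPM in the round spermatids. Its groups overlapped and its difference was -0.13, with a 95% interval from -0.41 to 0.14. Rad21l, at 0.251 to 0.970 CPM in spermatocytes and 0.308 to 1.10 CPM in round spermatids, differed by 0.32 with a 95% interval from -0.84 to 1.48, which is too wide to show a change in either direction. Counted over all 10 genes, 5 had wild-type groups without overlap, Sycp2, Sycp3, Syce1 and Smc1b below and Syce2 above, beside 33.7% of all genes tested.

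The same comparison in the mutants kept Syce2 as the gene that rose. In Ago413-/- mice Syce2 had 117, 74.3 and 54.4 CPM in the spermatocytes and 376, 296, 210.2 and 179 CPM in the round spermatids. The 2 sets did not overlap, and the difference was 1.70 (SE 0.30, edgeR adjusted p = 0.00103). In Ago413+/- mice it had 102, 92.8 and 114 CPM in the spermatocytes against 328, 152, 163 and 238 CPM in the round spermatids, again apart, with a difference of 1.10 (SE 0.29, edgeR adjusted p = 0.02). Syce2 was thus called higher in round spermatids in each of the 3 genotypes, but the Ago413+/- call was lost without round spermatid replicate 1 or 4, without any 1 of the 3 spermatocyte replicates, in a fit to those 2 groups alone and with the outlier libraries.

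In Ago413-/- mice 3 genes fell, Sycp2, Sycp3 and Smc1b, and 1 rose, Syce2. That is beside 17.1% of all genes called, 5.42% lower and 11.7% higher. The Ago413-/- round spermatid libraries were uneven for Sycp2, at 12.3, 15.6, 44.5 and 74.2 CPM, below the spermatocytes at 98.5, 141 and 190.1 CPM. The difference was -1.96 (SE 0.47, edgeR adjusted p = 0.0063). Smc1b followed the same order of libraries, with 51.8, 64.1, 131 and 213 CPM against 255, 259 and 342 CPM and a difference of -1.31 (SE 0.34, edgeR adjusted p = 0.00969). Replicates 3 and 4 of the Ago413-/- round spermatids were the higher ones for both genes, and they carry library numbers above 60, where the other 2 carry numbers below. Sycp3 had 24.7, 20.03, 35.6 and 42.5 CPM in those libraries and 51.3, 74.1 and 69.3 CPM in the spermatocytes, a difference of -1.08 (SE 0.28, edgeR adjusted p = 0.00944). Sycp1 at -0.83 (adjusted p = 0.0778), Tex12 at -0.19 (adjusted p = 0.804), Syce3 at 0.35, Rad21l at -0.40, Stag3 at -0.15 and Syce1 at -0.15 were not called. Groups did not overlap for 4 of the 10 genes, Sycp2, Sycp3 and Smc1b below and Syce2 above, beside 29.7% of all genes. Without Ago413-/- spermatocyte replicate 3 only Syce2, 1 of the 10 genes, was called, and with the outlier libraries the calls of Sycp3 and Smc1b were lost.

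In Ago413+/- mice Syce2 was the only one of the 10 genes called, beside 8.89% of all genes called and 7.07% called higher. The count was 5 without the filter on low counts and 3 with a replicate block by consecutive library numbers. It was 2 with DESeq2, beside 11.2% of all genes by that tool, and 0 in a fit to those 2 groups alone or with the outlier libraries. Shares of all genes for the alternatives other than DESeq2 are not given here. Sycp2 differed by -1.29 (edgeR adjusted p = 0.0892), Sycp3 by -0.82 (0.066), Sycp1 by -0.85 (0.107), Smc1b by -0.72 (0.191) and Tex12 by -0.56 (0.454). Syce3 at -0.31, Rad21l at 0.20, Stag3 at 0.09 and Syce1 at 0.02 had smaller differences. Ago413+/- round spermatid replicate 2 was high for Sycp2 at 77.4 CPM, against 25.5 to 34.9 CPM in the other 3, and for Smc1b at 187 CPM, against 106 to 146 CPM. Without it 3 of the 10 genes were called, with no share of all genes in that fit given here. Groups were apart for Syce2 above and Smc1b below, 2 of the 10, beside 18% of all genes. Whether the fraction difference itself changed with genotype is what the interaction tests below address.

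Medians of the 10 log2 differences were -0.74, -0.44 and -0.29 in wild-type, Ago413+/- and Ago413-/- mice, beside medians over all genes of 0.02, -0.06 and -0.00. Other cell types also moved between the fractions. Macrophage markers, a list of 10, summed to 14.1 to 20.4 CPM in the wild-type spermatocytes and 39.9 to 58.03 CPM in the wild-type round spermatids, with 7 of 10 called higher, while 0 of 8 Sertoli markers were called. In the wild type also 3 of 6 peritubular and endothelial markers, 3 of 7 spermatogonial and meiotic entry markers and 5 of 10 round spermatid markers were called higher, as were all 8 elongating spermatid markers. Of the 10 pachytene and diplotene markers 1 was called higher and 2 lower, and of the 6 leptotene and zygotene markers 1 higher and 1 lower. In Ago413-/- mice 3 of 8 Sertoli markers were called higher in round spermatids, with all 8 higher and a median log2 difference of 1.33, and 7 of 10 macrophage markers were called higher, as in Ago413+/- mice. Peritubular and endothelial markers were called higher for 3 of 6 genes in Ago413-/- and 2 of 6 in Ago413+/-, and erythrocyte markers for 2 of 2 tested in each, against 1 of 2 called and both higher in the wild type. In Ago413+/- mice 5 of 5 Leydig markers were lower in round spermatids (median -1.51), 1 of them, Cyp17a1, called. The part of these cell types in the differences of the 10 genes was not tested.

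**Figure D2:**
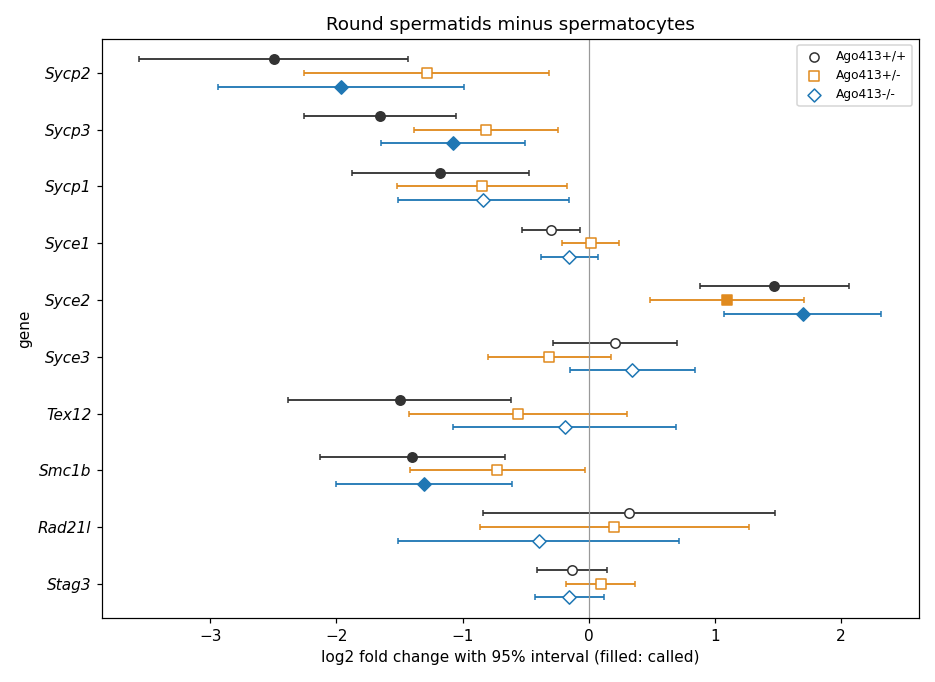
Log2 difference of round spermatids minus spermatocytes for each of the 10 genes, in the wild type, Ago413+/- and Ago413-/-. Points are edgeR estimates, bars are 95% intervals and filled points passed both thresholds, which holds for 6, 1 and 4 genes in that order of genotypes. Syce2 lies to the right of 0 and Sycp2 to the left in all 3 genotypes, with Sycp2 unfilled in Ago413+/-.

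The second comparison set each mutant against the wild type within a fraction. In spermatocytes 0 of the 10 genes were called between Ago413-/- and wild-type mice by edgeR, beside 0.0411% of 19450 genes. At an unadjusted p under 0.05 there were 3 of the 10, Smc1b higher and Sycp3 and Tex12 lower, beside 5907 of the 19450 genes, so that this share of the members was near that of all genes. DESeq2 called 2 of the 10, Sycp3 and Tex12, both lower, beside 15.2% of all genes, so the tools differed across the whole table and not for these genes alone. The median of the 10 log2 differences was -0.04, beside -0.03 over all genes, and the differences ran from -1.46 to 0.67. Groups were apart for Sycp3 and Smc1b, 2 of the 10, beside 27.8% of all genes.

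Sycp3 had 134, 109, 203 and 87.2 CPM in wild-type spermatocytes, 78.2, 52.4 and 70.9 CPM in Ago413+/- and 51.3, 74.1 and 69.3 CPM in Ago413-/-. All 6 mutant libraries used lay below the lowest of the 4 wild-type libraries used, and the mutants overlapped each other. The wild-type outlier left out, replicate 3, had 38.7 CPM of Sycp3, lower than each of those 6. The Ago413+/- outlier left out, replicate 4, had 32.7 CPM. The log2 difference of Ago413-/- from wild type was -1.01 (SE 0.26, 95% interval -1.57 to -0.46), with an edgeR adjusted p of 0.0599. DESeq2 gave -0.99 with an adjusted p of 0.012. Over 17 other settings the edgeR and DESeq2 estimates ran from -1.16 to -0.69 with adjusted p from 0.000541 to 0.296, and 5 of the 17 called Sycp3. Leaving out wild-type replicate 5 gave an adjusted p of 0.00801, and the highest with a single library left out was 0.225. For Ago413+/- the difference was -0.94 (SE 0.26), with an adjusted p of 0.124 by edgeR and 0.0323 by DESeq2. Both mutants were compared with the same 4 wild-type libraries, so these differences are not independent of each other.

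The wild-type libraries differed in their library numbers, which the labels give without saying what they mark. Among numbers up to 60, Sycp3 was at 109 to 203 CPM in 3 wild-type libraries and at 51.3 CPM in the Ago413-/- library. Among numbers above 60 it was at 87.2 CPM in the wild-type library and at 69.3 to 74.1 CPM in 2 Ago413-/- libraries. Among the libraries used, wild type was above Ago413-/- in both sets, by less in the second. The wild-type outlier left out carries number 72 and had 38.7 CPM, below the Ago413-/- libraries of that second set.

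Tex12 had 10.8, 5.43, 14.3 and 2.73 CPM in wild-type spermatocytes, 5.00, 4.44 and 3.36 CPM in Ago413+/- and 2.56, 3.63 and 2.71 CPM in Ago413-/-. The wild-type libraries spread widely, and replicate 5 lay within the Ago413-/- range. Of the outliers left out, wild-type replicate 3 had 2.52 CPM, below every Ago413-/- library, and Ago413+/- replicate 4 had 0.819 CPM. The log2 difference was -1.46 for Ago413-/- (SE 0.45, 95% interval -2.43 to -0.48, edgeR adjusted p = 0.073) and -0.90 for Ago413+/- (SE 0.44, adjusted p = 0.221). DESeq2 gave -1.44 with an adjusted p of 0.0191 for Ago413-/-. Single wild-type libraries moved these values. Without replicate 4 they were -1.01 and -0.45, and without replicate 5 they were -1.75 (adjusted p = 0.00703) and -1.19 (adjusted p = 0.0357). Among library numbers above 60, Tex12 was at 2.73 CPM in the wild type and 2.71 to 3.63 CPM in Ago413-/-, so the difference was not seen there.

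Smc1b had 156, 141, 257 and 239 CPM in wild-type spermatocytes, 255, 190.0 and 249.8 CPM in Ago413+/- and 255, 259 and 342 CPM in Ago413-/-. The highest wild-type and the lowest Ago413-/- library were nearly equal, overlapping on this scale and apart when the spermatocytes were scaled without the round spermatids. Its difference of 0.55 (SE 0.21, 95% interval 0.09 to 1.00) had an edgeR adjusted p of 0.114. Over 17 other settings the edgeR and DESeq2 estimates ran from 0.40 to 0.85 with adjusted p from 0.0469 to 0.329, and 3 of the 17 called Smc1b. In Ago413+/- the difference was 0.27 with an edgeR adjusted p of 0.441, and 0.14 to 0.46 when 1 library was left out. Within the set of library numbers above 60 Smc1b was at 239 CPM in the wild type and 259 to 342 CPM in Ago413-/-. Among numbers up to 60 the Ago413-/- library at 255 CPM lay within the wild-type range of 141 to 257 CPM.

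Other members gave no call in Ago413+/- spermatocytes either, with 0 of 10 by edgeR beside 0.0257% of all genes, 1 of 10 by DESeq2 beside 6.16%, and groups apart for Sycp3 and Syce1, both below, beside 17.2%. Syce1 had 402, 351 and 438 CPM in Ago413+/- against 457 to 508 CPM in the wild type, a difference of -0.22 with an edgeR adjusted p of 0.314. Syce3 stood out in 1 library, at 100.2 CPM in Ago413+/- replicate 3 against 37.6 and 45.3 CPM in the other 2. Between Ago413-/- and Ago413+/- spermatocytes 0 of the 10 genes were called, beside 0.00514% of all genes, and the lowest adjusted p of a member was 0.974.

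Of the marker genes 1 was called between genotypes in the spermatocytes, the meiotic entry gene Stra8, higher in Ago413+/- by 2.08 log2 units (edgeR adjusted p = 0.0107). Its list of 7 spermatogonial and meiotic entry markers had 4 higher at an unadjusted p under 0.05 in Ago413+/- (median 0.96) and 3 in Ago413-/- (median 0.68), and summed to 38.5 to 49.1 CPM in the wild type, 65.96 to 88.9 CPM in Ago413+/- and 46.9 to 76.3 CPM in Ago413-/-. All 10 round spermatid markers were higher in Ago413-/- than in wild-type spermatocytes (median 0.65), 8 of them at an unadjusted p under 0.05 and 0 called. In Ago413+/- all 10 were also higher (median 0.72), 9 of them at that level and 0 called. Their summed level was 1198 to 2171 CPM in the wild type, 1953 to 3262 CPM in Ago413+/- and 2271 to 2778 CPM in Ago413-/-. Leptotene and zygotene markers summed to 112 to 272 CPM in the wild type, 99.5 to 127 CPM in Ago413+/- and 95.3 to 101 CPM in Ago413-/-, with 3 of 6 lower and 1 higher in Ago413-/- at an unadjusted p under 0.05. Pachytene and diplotene markers summed to 4094 to 4381 CPM, 3323 to 3901 CPM and 3333 to 3863 CPM, with 0 called. In each mutant 8 of these 10 were lower. At an unadjusted p under 0.05 there were 3 lower in Ago413+/-, and 4 lower and 1 higher in Ago413-/-. Sertoli markers were lower in Ago413-/- for 8 of 8 genes (median -0.74), 0 of them at an unadjusted p under 0.05, and summed to 159 to 429 CPM in the wild type and 96.3 to 173 CPM in Ago413-/-. Of 6 macrophage markers tested 3 were higher and 1 lower in Ago413-/- at an unadjusted p under 0.05. In Ago413+/- spermatocytes 6 of 6 macrophage markers were higher, 1 of them at an unadjusted p under 0.05, and 5 of 5 Leydig markers were higher (median 1.18), 2 of them at that level. No gene of these lists was at 0 in every library. Their part in the values of Sycp3, Tex12 and Smc1b was not tested.

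**Figure D3:**
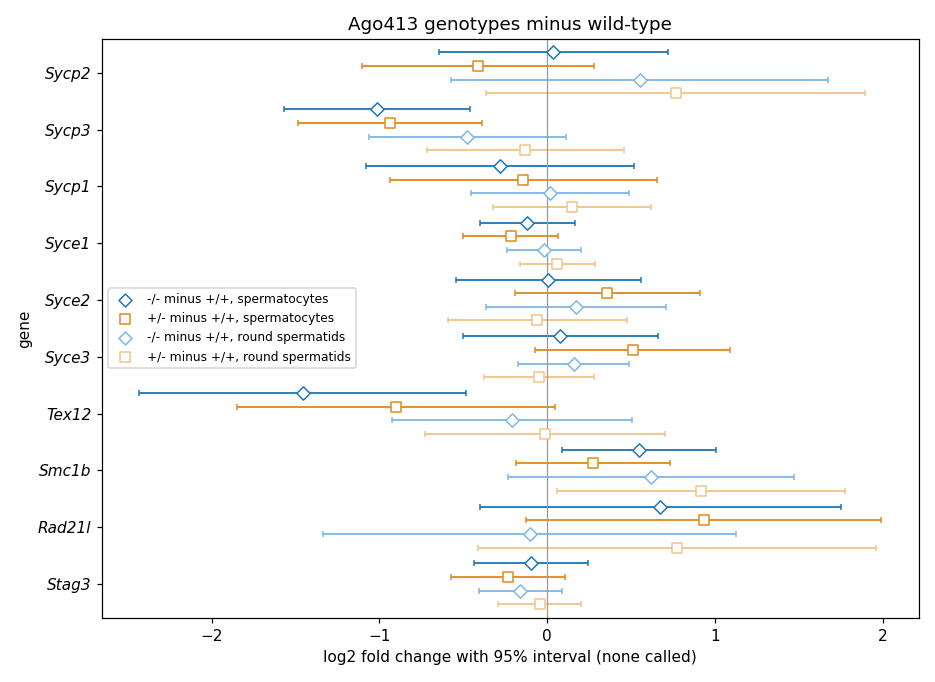
Log2 difference from wild type of each of the 10 genes in Ago413-/- and Ago413+/- mice, for spermatocytes and for round spermatids. Points are edgeR estimates and bars 95% intervals, and no point is filled because 0 genes were called. The intervals of Sycp3 lie below 0 for both mutants in spermatocytes and include 0 in round spermatids.

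In round spermatids 0 of the 10 genes were called between Ago413-/- and wild type, beside 0.0518% of 19310 genes, and 0 had an unadjusted p under 0.05, beside 3734 of all genes. Sycp3 had 43.2, 43.9 and 39.8 CPM in the wild type and 24.7, 20.03, 35.6 and 42.5 CPM in Ago413-/-, of which the last lay within the wild-type range. Its difference was -0.48 (SE 0.27, edgeR adjusted p = 0.357). Smc1b had 59.6, 73.3 and 93.1 CPM in the wild type and 51.8 to 213 CPM in Ago413-/-, a difference of 0.62 (SE 0.40, adjusted p = 0.409) that became 0.089 without Ago413-/- replicate 4 and -0.34 with the outlier library. Stag3 had 434.6 to 482 CPM in Ago413-/- against 490.0 to 505 CPM in the wild type, apart but differing by only -0.16 (SE 0.12, adjusted p = 0.465). It was the 1 of the 10 genes without overlap, beside 20.8% of all genes.

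Ago413+/- round spermatids also gave 0 of 10 calls, beside 0.0207% of all genes. Smc1b had 106, 187, 146 and 123 CPM, all above the wild type, and a difference of 0.91 (SE 0.40, edgeR adjusted p = 0.551). It was the 1 gene of the 10 without overlap, beside 8.69% of all genes, and its difference became -0.07 with the outlier library. Sycp3 differed by -0.13 (adjusted p = 0.917). Between Ago413-/- and Ago413+/- round spermatids 0 of 10 were called, beside 0.00518% of all genes.

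Markers of other cells also differed between the round spermatid groups. Macrophage markers were higher in Ago413-/- than in the wild type for 9 of 10 genes, 6 of them at an unadjusted p under 0.05 (median 1.03), and summed to 39.9 to 58.03 CPM in the wild type, 38.8 to 92.5 CPM in Ago413+/- and 51.8 to 85.7 CPM in Ago413-/-. Of the 10 pachytene and diplotene markers 1, Ovol2, was called lower in Ago413-/-, and 5 were lower at an unadjusted p under 0.05. All 10 round spermatid markers were higher in Ago413-/-, 5 of them at an unadjusted p under 0.05. In Ago413+/- 4 of 10 macrophage markers were higher and 4 of 10 pachytene and diplotene markers lower at an unadjusted p under 0.05. Their part in the values of Sycp3, Smc1b and Stag3 was not tested.

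Whether genotype acted differently on these genes in the 2 fractions was tested as an interaction. None of the 10 was called for Ago413-/- or for Ago413+/-, and neither was any of the 20404 genes, 0% in both tests. For Sycp3 the Ago413-/- difference was 0.58 higher in round spermatids than in spermatocytes on the log2 scale (edgeR adjusted p = 0.81), and for Ago413+/- 0.84 higher (adjusted p = 0.637). Tex12 gave 1.31 (adjusted p = 0.807) and 0.94 (adjusted p = 0.664). Without wild-type spermatocyte replicate 4 these 4 values were 0.30 and 0.56 for Sycp3 and 0.91 and 0.54 for Tex12, in the same order of genotypes. At an unadjusted p under 0.05 there was 1 of the 10 genes in each test, Tex12 for Ago413-/- and Sycp3 for Ago413+/-, beside 1215 and 1576 of all genes.

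Genes that work beside the members were read from a list of 20 further axis, central element and meiotic cohesin genes, of which 18 were tested. Between wild-type fractions 8 of the 18 fell and 1 rose, beside the 11.4% and 12.7% over all genes. Hormad1, an axis protein that recruits recombination factors to unsynapsed chromosomes, fell by 1.65 log2 units (edgeR adjusted p = 0.000548). Sgo2a, which guards centromeric cohesin, fell by 1.88, Ankrd31, an axis protein of the pseudoautosomal region, by 1.54, Terb1, which ties telomeres to the nuclear envelope, by 1.23, and Ccdc36, which helps to set where chromosome breaks form, by 1.12. The gene that rose was Rec8, the other meiotic kleisin, by 0.63 (SE 0.17, adjusted p = 0.00931). In Ago413-/- mice 5 of the 18 fell, Terb1, Ccdc36, Sgo2a, Hormad1 and Ankrd31, beside 5.42% of all genes, and in Ago413+/- mice 1, Ccdc36, beside 371 of all 20404 genes. Between genotypes 0 of the 18 were called in either fraction. In Ago413-/- spermatocytes 14 of the 18 were lower than in the wild type (median -0.36). At an unadjusted p under 0.05 there were 5 lower and 1 higher, beside 5907 of 19450 genes. In Ago413+/- spermatocytes 14 were lower (median -0.21), with 6 lower and 1 higher at that level, beside 4794 of all genes. Rec8 had 75.4 to 134 CPM in wild-type spermatocytes and 144 to 162 CPM in Ago413-/-, a difference of 0.67 with an edgeR adjusted p of 0.0678.

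The mitotic cohesin subunits Smc1a, Smc3, Rad21, Stag1 and Stag2 offered a comparison with their meiotic forms. Of these 5 genes Stag1 fell between wild-type fractions, by 1.12, and Smc3 between Ago413-/- fractions, by 0.94, and 0 of 5 were called between genotypes. Stag2 came nearest, with 17.6, 24.4, 24.4 and 36.3 CPM in wild-type spermatocytes against 50.02 to 59.5 CPM in Ago413-/-, a difference of 1.13 (SE 0.22, edgeR adjusted p = 0.0599). Of 10 genes for cohesin loading, release and acetylation 5 fell between wild-type fractions, beside 11.4% of all genes, among them the loader gene Nipbl by 1.48. Between Ago413-/- fractions 4 of the 10 fell, beside 5.42% of all genes, and none was called between genotypes.

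Within each library the meiotic subunit was divided by its mitotic paralogue per kilobase, which needs no scaling between libraries. The log2 ratio of Smc1b to Smc1a was 7.34 ± 0.502 (SD, n = 4) in wild-type spermatocytes and 5.77 ± 0.150 (SD, n = 3) in wild-type round spermatids. All round spermatid libraries were below all spermatocyte libraries, a difference of -1.56 with a two-sided exact permutation p of 0.0571, which is the smallest that 3 against 4 libraries allow. Adjusted over the 20 ratio tests run it was 0.190, and none of the 20 could pass 0.05. The ratio of Stag3 to Stag1 was 5.03 ± 0.256 in the spermatocytes and 6.02 ± 0.340 in the round spermatids, apart and 0.99 higher (exact permutation p = 0.0571, adjusted 0.190). The 2 ratios thus went opposite ways between the fractions.

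By genotype the ratio of Stag3 to Stag2 differed most. In spermatocytes it was 4.98 ± 0.559 in the wild type (SD, n = 4), 3.76 ± 0.391 in Ago413+/- (n = 3) and 3.70 ± 0.350 in Ago413-/- (n = 3). Every mutant library, at 3.32 to 4.08, lay below every wild-type library, at 4.18 to 5.49, with differences of -1.28 for Ago413-/- and -1.22 for Ago413+/- and an exact permutation p of 0.0571 for each. Between the same spermatocyte groups Stag3 itself differed by -0.10 in Ago413-/- and -0.24 in Ago413+/- from wild type. That is smaller in size than the Stag2 difference given above for Ago413-/-. In round spermatids the ratio was 5.29 ± 0.677 in the wild type (n = 3), 4.33 ± 0.0974 in Ago413+/- (n = 4) and 4.36 ± 0.468 in Ago413-/- (n = 4), apart from the wild type in the first case (exact permutation p = 0.0571) and overlapping it in the second (exact permutation p = 0.114). These differences, -0.96 and -0.93, were -0.57 and -0.54 without wild-type replicate 1, whose ratio was 6.06 against 5.00 and 4.79 in the other 2, and -0.58 and -0.54 with the outlier library. The ratio of Stag3 to Stag1 differed by 0.14 in Ago413-/- spermatocytes (exact permutation p = 0.571) and by -0.06 in Ago413+/-. In round spermatids it differed by -0.58 in Ago413+/-, apart from the wild type (exact permutation p = 0.0571), and by -0.42 in Ago413-/- (exact permutation p = 0.229).

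**Figure D4:**
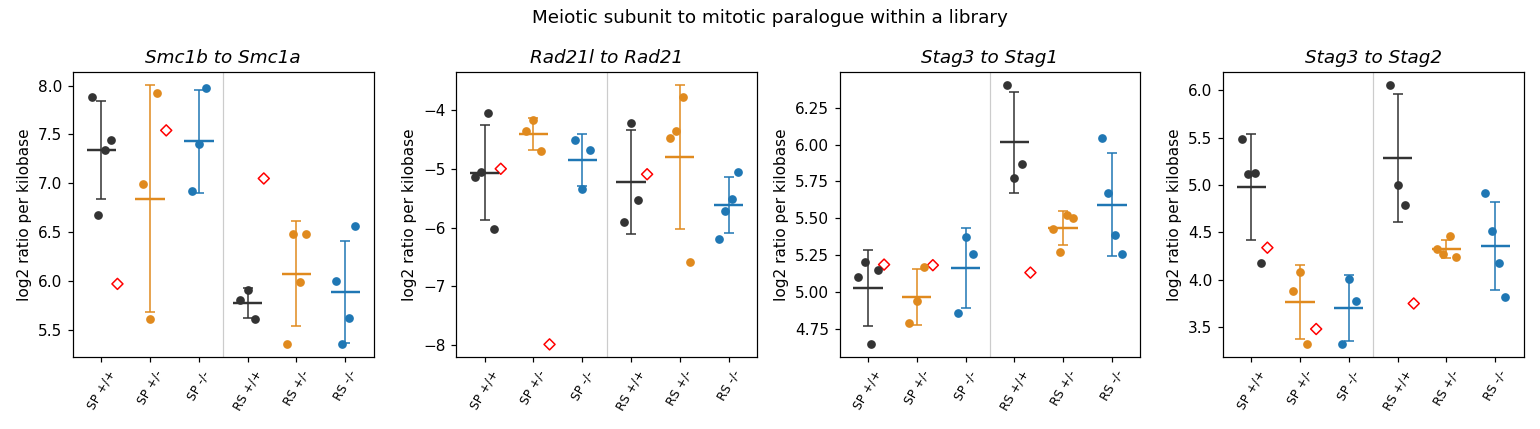
Log2 ratio of meiotic to mitotic cohesin subunit per kilobase in every library, for each pair of paralogues and each group. Points are libraries, the line is the group mean and the bar its SD, and open red diamonds are the libraries the labels call outliers. The ratio of Stag3 to Stag2 lies between 4.18 and 5.49 in the wild-type spermatocytes used and between 3.32 and 4.08 in those of both mutants.

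The genes most like each member over the 21 libraries were found as those with the smallest root mean square (RMS) difference of centred log2 CPM, among 20403 other genes. Sycp3 was closest to Hormad1 at 0.164, followed by Stk31 and Ddx43. Smc1b was closest to Nipbl at 0.147, then Lrrcc1 and Ccdc175, and Sycp2 to Knl1 at 0.326, then Zfp638 and Tpr. Syce2 was closest to Actl9 at 0.129, then Selenok and Dbil5, and Tex12 to Mad2l1 at 0.286. Stag3 and Syce1 had Dnajc27 at 0.0532 and Btbd1 at 0.0571 as their nearest genes. For Sycp1 the nearest was Tmed5 at 0.269, for Syce3 Efcab10 at 0.0985 and for Rad21l Clspn at 0.356. No member was among the 3 nearest genes of another. By rank the closest approach was Smc1b at rank 63 for Sycp2, and by RMS difference Stag3 and Syce1 at 0.156.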

How the data were processed

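RNA-seq was made by the study from germ cells separated into pachytene/diplotene spermatocytes and round spermatids. The authors trimmed reads with Trim Galore, aligned them to mm10 with STAR and deposited raw read counts per gene, as its gene counting writes them, with no normalization. Versions, annotation release and strand column are not given in the sources used here. Of 498 genes covered entirely by exons of the opposite strand, 261 (52.4%) had counts, 37 of them 210 or more over the 21 libraries. Reads over such overlaps were thus counted for these genes and not all discarded. Groups and replicate numbers came from the labels, and separate pools of mice were taken as replicates. No 2 libraries of a group agreed within sampling noise.

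Counts were tested in R 4.3.3 with edgeR 4.0.16 (TMM scaling, quasi-likelihood test), keeping genes with a count of 10 or more in 3 or more libraries, with 1 fit per fraction for genotypes and 1 over both fractions otherwise, all genes adjusted together by Benjamini-Hochberg. All 10 members passed this filter. The thresholds for a call (adjusted p 0.05, log2 fold change 0.5 in either direction) follow the study. The 3 libraries were left out because the labels mark them as outliers. CPM used TMM over both fractions, and groups were called apart in genotype comparisons on CPM scaled within the fraction. Ratios had 0.5 added to each count. Standard errors were derived from the quasi-likelihood F statistic and intervals from its t quantile. Scripts were tested on simulated data. DESeq2 1.42.0, RLE scaling, no filter, fits to the compared groups only, a library-number term, a replicate block, the outlier libraries and leaving out each library were the alternatives.

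The members and lists were chosen with earlier results of these data known. Named were all members, called genes of the lists (at most 6 by p), the mitotic subunits, Rec8 and the 3 genes nearest each member. Of pairs across fractions with the same replicate number, 4 of 9 had a correlation above 0.1. With consecutive library numbers it was 8 of 9, the lowest being -0.14. The labels do not say what consecutive numbers mark, so no pairing was assumed in the main tests. If such libraries share pools of mice, the main tests between fractions ignore this. A block by those numbers was among the alternatives. Markers of Leydig, peritubular, endothelial, erythrocyte and spermatogonial cells were also read. In wild-type spermatocytes they summed to 3.25 to 10.1, 8.44 to 11.4 (peritubular and endothelial), 0 to 0.223 and 38.5 to 49.1 CPM, and Sertoli markers to 159 to 429 CPM. Precision is limited by 3 or 4 libraries a group.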

Additional observations from a re-analysis of the deposited data

Results flagged for a closer look

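The summed level of the 10 genes in wild-type spermatocyte replicate 4 was 2042 CPM, far above the other 3 libraries of the group at 1595 to 1658 CPM. The gap to the nearest library took 0.859 of the range of the group, above Dixon's critical value for 4 samples. It was the only one of 45 groups of 4 examined in this way that passed. Chance gives about 1 in 20, so 1 pass among 45 is no more than chance would give.

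The library labelled wild-type round spermatids replicate 3, which entered no comparison, had 125 CPM of Sycp2, 4.84 times the highest of the 3 wild-type round spermatid libraries used (24.1 to 25.8 CPM). It had 367 CPM of Smc1b, 3.94 times the highest of those libraries (59.6 to 93.1 CPM).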

How the results depend on the processing

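Between Ago413-/- and wild-type spermatocytes the number of the 10 genes called was 0, but 2 with DESeq2, beside 15.2% of all genes by that tool. It was 3 without the filter, 1 with only the 2 groups fitted and 1 with a replicate block, and 0 to 3 when 1 library was left out (3 without wild-type replicate 5, 2 without Ago413+/- replicate 3). For Ago413+/- the number was 0, but 1 with DESeq2, beside 6.16% of all genes. It was 1 without the filter, and 0 to 2 with 1 library left out (2 without wild-type replicate 5). Shares of all genes are given for the main fits and DESeq2 only, so the other counts have none beside them. Between fractions the counts were 6, 1 and 4 in wild-type, Ago413+/- and Ago413-/- mice. With the outlier libraries added back they were 0, 0 and 2. For Ago413+/- the count was also 2 with DESeq2, 5 without the filter, 0 with the 2 groups alone and 3 with a replicate block by consecutive library numbers. Leaving out 1 library gave 4 to 6, 0 to 3 and 1 to 5, and the median wild-type difference of -0.74 was -1.16 with the 2 groups alone and -0.31 with the outliers. RLE scaling and the library-number term left these counts within 1.5 times, and the replicate block changed no other count by more. Signs turned for Smc1b in round spermatids with the outliers (-0.34 and -0.071), for Rad21l between wild-type fractions (-0.048 with the replicate block) and for Syce1 between Ago413+/- fractions (-0.00140 with DESeq2, -0.00153 with RLE, -0.00258 without the filter, -0.00593 with the outliers). Leaving out 1 library also turned signs of small differences between fractions, for Rad21l in wild-type mice (-0.50 to 0.85) and in Ago413+/- mice for Syce1 (-0.065 to 0.070), Syce3 (-0.57 to 0.22), Rad21l (-0.22 to 0.50) and Stag3 (-0.047 to 0.17). It turned the ratio of Stag3 to Stag2 between wild-type fractions (-0.081 to 0.55) and that of Stag3 to Stag1 in Ago413+/- spermatocytes (-0.19 to 0.029). The cause was not tested.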
